A study of Mus musculus with 12 samples.

Results

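Stat3 read peaks inside introns were taken from the list of peak summits of LIF-stimulated -/-WT MEFs. A summit was counted as intronic when it lay inside an annotated gene body, in no annotated exon, and outside the window from 5 kb upstream to 0.5 kb downstream of every annotated transcriptional start site (mm10, GENCODE M21). By this rule 344 of the 1088 LIF summits were intronic, or 31.6% (28.9 to 34.5%). Of the remainder, 421 lay in promoter windows (38.7%), 304 were intergenic and 19 lay in exons. Eligible intronic sequence came to 913 Mb in all, and whether the intronic share differed from its share of the genome was not tested. The paper gives a lower promoter share for a window of the same size. Every annotated transcript start was used here, and the start sites behind the paper's share were not compared. All intervals given with shares are exact Clopper-Pearson 95% intervals on counts of peaks and cover counting error only.

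The study compared Stat3 chromatin binding by ChIP-seq in MEFs, which are mouse embryonic fibroblasts, after LIF or peroxide. The cells were immortalised from Stat3 fl/fl embryos, deleted for Stat3 with a retroviral Cre-Thy1.1 vector, and then made to re-express either WT-Stat3 (-/-WT) or the oxidation-insensitive mutant Stat3-C3S (-/-C3S) from a retroviral vector that also carries GFP, so that every line was polyclonal and made its Stat3 from a transgene. Cells were kept overnight in 0.5% FBS and left untreated, given LIF at 10 ng per ml for 45 min (-/-WT only), or given peroxide for 1 h at a dose that the labels put at 100 mM and the methods text at 100 µM, and all were cross-linked with 1% formaldehyde. Each of the 5 conditions had 2 ChIP replicates, the peaks of both were called together, and 1 list per condition was analysed, so the values below have no replicate error and the p-values compare classes of peaks within 1 list.

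Stat3 is a latent transcription factor that cytokines of the IL-6 family, LIF among them, activate through Jak kinases. Tyrosine-phosphorylated Stat3 forms dimers that enter the nucleus and bind a palindromic element, the SIE. Introns hold many enhancers, distal elements that several transcription factors bind together. AP-1, a dimer of Jun and Fos family proteins, is a well known occupant of enhancers in fibroblasts.

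Windows around 6 of the 7 highest-scoring intronic summits are given first, to show which sites lay at the strongest peaks. They were read from the RefSeq copy of the mm10 genome on the plus strand, 5′ to 3′. Capitals mark the SIE consensus TTCCNGGAA with up to 1 mismatch and the AP-1 site TGANTCA, each searched within 80 bp of the summit on both strands. The score is the value deposited for the peak and is used here only to rank peaks.
Ell, chr8:70564898-70564999, score 63.4: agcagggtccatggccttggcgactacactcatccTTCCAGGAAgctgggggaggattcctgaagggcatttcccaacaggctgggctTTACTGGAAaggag
Ltbp1, chr17:75111171-75111231, score 51.1: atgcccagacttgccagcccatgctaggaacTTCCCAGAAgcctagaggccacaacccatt
Rnf150, chr8:82871172-82871245, score 48.4: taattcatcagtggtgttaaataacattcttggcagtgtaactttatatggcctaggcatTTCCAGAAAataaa
Midn, chr10:80153034-80153118, score 47.0: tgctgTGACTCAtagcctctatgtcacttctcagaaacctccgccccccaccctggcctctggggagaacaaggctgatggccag
Lama4, chr10:38973163-38973264, score 43.6: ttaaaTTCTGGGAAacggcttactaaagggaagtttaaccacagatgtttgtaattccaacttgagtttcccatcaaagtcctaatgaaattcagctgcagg
Sh3rf3, chr10:58960391-58960456, score 41.1: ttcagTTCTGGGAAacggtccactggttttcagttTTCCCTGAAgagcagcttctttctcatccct

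Ell held a consensus SIE 9 bp from its summit and a copy with 1 mismatch further away. Ltbp1, Rnf150 and Lama4 each held 1 SIE with 1 mismatch, and Sh3rf3 held 2 of them. Midn had no SIE with up to 1 mismatch but an AP-1 site 46 bp from the summit.

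Further windows are shown for the combinations of sites that were found. The following are the highest-scoring peaks with a consensus SIE and an AP-1 site (4930567H12Rik and Syn3), with an AP-1 site and no SIE of up to 1 mismatch (Cyth3 and Olfm3, after Midn), and with neither (Rara, the highest, and Galnt9, the third).
4930567H12Rik, chr8:125624413-125624533, score 37.5: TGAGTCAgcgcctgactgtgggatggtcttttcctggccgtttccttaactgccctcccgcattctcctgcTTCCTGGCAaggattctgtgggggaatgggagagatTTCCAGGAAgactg
Syn3, chr10:86100286-86100388, score 34.4: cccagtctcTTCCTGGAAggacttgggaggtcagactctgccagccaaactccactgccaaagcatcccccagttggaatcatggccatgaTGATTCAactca
Cyth3, chr5:143657180-143657244, score 30.4: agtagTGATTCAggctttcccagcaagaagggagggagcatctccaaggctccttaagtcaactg
Olfm3, chr3:115028290-115028352, score 26.2: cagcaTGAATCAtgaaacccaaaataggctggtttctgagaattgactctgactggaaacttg
Rara, chr11:98951465-98951525, score 24.9: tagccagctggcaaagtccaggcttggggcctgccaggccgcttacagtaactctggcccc
Galnt9, chr5:110547427-110547487, score 23.6: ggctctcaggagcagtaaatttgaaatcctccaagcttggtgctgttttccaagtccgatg

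Intronic summits had scores from 1.99 to 63.4 with a median of 8.74 and quartiles of 5.93 and 14.1. The median was 10.4 for promoter peaks and 9.44 for intergenic peaks, and the highest score was 144 for promoter peaks and 56.6 for intergenic peaks. At or above the median of the whole list (9.44) were 162 of 344 intronic peaks (47.1%), 230 of 421 promoter peaks (54.6%) and 153 of 304 intergenic peaks (50.3%). By Fisher's exact test (2-sided), neither comparison passed after adjustment over the pair, with adjusted p = 0.0837 against promoter peaks (0.0418 unadjusted) and 0.431 against intergenic peaks. At the top of the list, 2 of the 10 highest-scoring LIF peaks were intronic, as were 9 of the top 50 (18.0%, 8.58 to 31.4%) and 22 of the top 100 (22.0%, 14.3 to 31.4%).

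**Figure D1:**
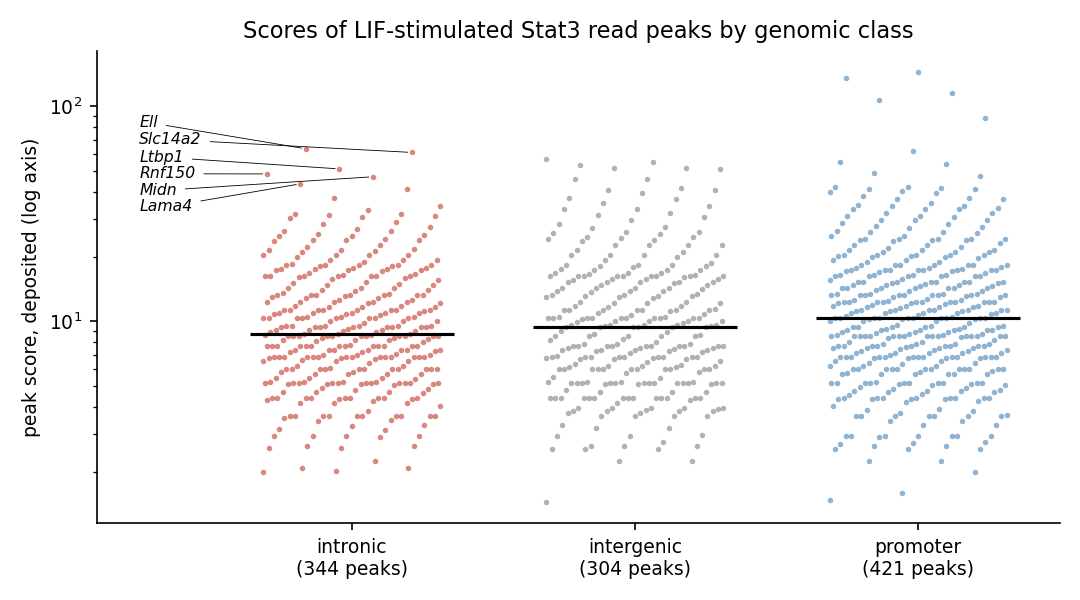
Deposited score (log axis) of each LIF read peak, as a point, for 344 intronic, 304 intergenic and 421 promoter peaks, with sideways spread only for legibility. Black lines are medians, at 8.74, 9.44 and 10.4, and the 6 named points are the highest-scoring intronic peaks.

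The 15 highest-scoring intronic peaks lay in 15 different genes, 14 of them protein-coding, and ranged from 63.4 to 30.4. The highest was in intron 1 of Ell, an elongation factor of RNA polymerase II, at rank 6 of the whole list and 25.2 kb from the start site. The second was in intron 3 of the urea transporter gene Slc14a2 (score 61.0, rank 8). Ltbp1, which encodes a binding protein of latent TGF-β, had its summit in intron 3 with a score of 51.1, 67.6 kb from the nearest start site of the gene.

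Next in rank were Rnf150, a RING finger gene (intron 1, score 48.4), Midn (intron 4, score 47.0) and Lama4, the laminin α4 chain of basement membranes (intron 1, score 43.6). They were followed by Sh3rf3 (41.1), the lincRNA gene 4930567H12Rik (37.5), the synapsin gene Syn3 (34.4) and Atp8b1, a phospholipid flippase (33.1). The DNA repair genes Babam2 (31.5) and Spidr (31.4), the LIM-domain adhesion gene Lpp (31.4), Susd6 (30.7) and the Arf exchange factor gene Cyth3 (30.4) completed the 15. Among these 15 peaks, 3 had a consensus SIE within 80 bp, 13 had an SIE with up to 1 mismatch and 6 had an AP-1 site. The shares over all intronic peaks were 12.8%, 66.0% and 31.4%. The peak was in the first intron in 6 of the 15, and the host owned the closest start site in 8. Over all intronic peaks these shares were 39.5% and 61.6%.

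A consensus SIE lay within 80 bp of 44 of the 344 intronic summits (12.8%, 9.45 to 16.8%), beside 15.3% of all LIF peaks. It was found in 0 of 688 windows of the same length centred 1 kb to either side of the intronic summits (exact upper limit 0.535%) and in 0.392% of 5587211 windows tiled over eligible intronic sequence. With 1 mismatch allowed, 227 intronic peaks had an SIE (66.0%, 60.7 to 71.0%), beside 66.6% of all LIF peaks, 8.87% of the flanking windows and 8.20% of tiled intronic windows. The looser Stat element TTCNNNGAA, which contains the SIE, lay at 150 intronic peaks (43.6%), beside 40.7% of all LIF peaks and 5.67% of tiled windows.

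The SIE share of intronic peaks was 12.8%, against 16.9% of promoter and 15.5% of intergenic peaks. These differences did not pass the test (2-sided Fisher's exact test adjusted over 18 pairs of motif and class, p = 0.209 and 0.548), nor did those for an SIE with up to 1 mismatch (66.3% and 67.4% in promoter and intergenic peaks, adjusted p = 0.994 and 0.950) or for TTCNNNGAA (36.8% and 43.1%, adjusted p = 0.153 and 0.994).

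A few forms of the site recurred. At the site closest to each summit, 64 of 227 intronic peaks had TTCCCAGAA or its reverse complement TTCTGGGAA, and 38 had TTCCAGGAA or TTCCTGGAA. TTCCAGTAA or TTACTGGAA was closest at 24 peaks, and TTCCTGGCA or TGCCAGGAA at 17. Of the windows above, Ltbp1 holds the first of these forms and Ell the second.

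Read as arms TTCC from the outer end, the single mismatch of the 186 peaks whose closest site was not perfect fell on position 4, next to the spacer, in 85 (45.7%) and on the outermost position in 18 (9.68%). In the 61 flanking windows with such a site, the same positions took 12 (19.7%) and 20 (32.8%). In promoter peaks the position next to the spacer took 70 of 213 mismatches (32.9%) and in intergenic peaks 65 of 165 (39.4%). The spacer base of the closest consensus SIE was A or T in 41 of 44 intronic peaks, in 41 of 71 promoter peaks and in 37 of 47 intergenic peaks. These differences between classes were not tested, and the form with C or G as spacer contains a CpG.

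The closest SIE with up to 1 mismatch was centred a median of 20 bp from the intronic summit (quartiles 9.5 and 37.5 bp). In 51 intronic peaks (14.8%) there were 2 or more such sites within 80 bp. The share with a consensus SIE was 15.1% in intronic peaks at or above their own median score and 10.5% in those below it (172 peaks each, 2-sided Fisher's exact test, p = 0.258). With 1 mismatch allowed the shares were 71.5% and 60.5%, with an exact p of 0.0403 unadjusted and 0.121 after adjustment over the 3 motifs compared by score.

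AP-1 sites lay at 108 of 344 intronic summits (31.4%, 26.5 to 36.6%), beside 23.2% of all LIF peaks, 4.94% of the flanking windows and 4.86% of tiled intronic windows. Intronic peaks had an AP-1 site more often than promoter peaks, of which 66 of 421 had one (15.7%, adjusted p = 2.50e-06, 2-sided Fisher's exact test). When promoters were widened to 10 kb on each side of the start site, the difference shrank from 15.7 to 8.08 percentage points (adjusted p = 0.113, Fisher's exact test). In intergenic peaks the share was 24.7%, and the difference of 6.72 points from intronic peaks did not pass (adjusted p = 0.153, Fisher's exact test). The flanking and tiled windows were intronic, and no background share was measured for promoters. Median GC content was 46.6% for intronic and 57.1% for promoter windows, and its part in the AP-1 difference was not tested.

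The closest AP-1 site was centred a median of 28 bp from the intronic summit, with quartiles of 14.8 and 54.8 bp. An SIE with up to 1 mismatch was present in 69 of the 108 intronic peaks with AP-1 (63.9%, 54.1 to 72.9%) and in 158 of the 236 without it (66.9%, 60.6 to 72.9%), and both sites were absent from 78 peaks (22.7%). A consensus SIE and an AP-1 site occurred together in 11 intronic peaks. AP-1 was found at 27.9% of intronic peaks at or above their median score and 34.9% of those below (adjusted p = 0.258 over 3 motifs, 2-sided Fisher's exact test).

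**Figure D2:**
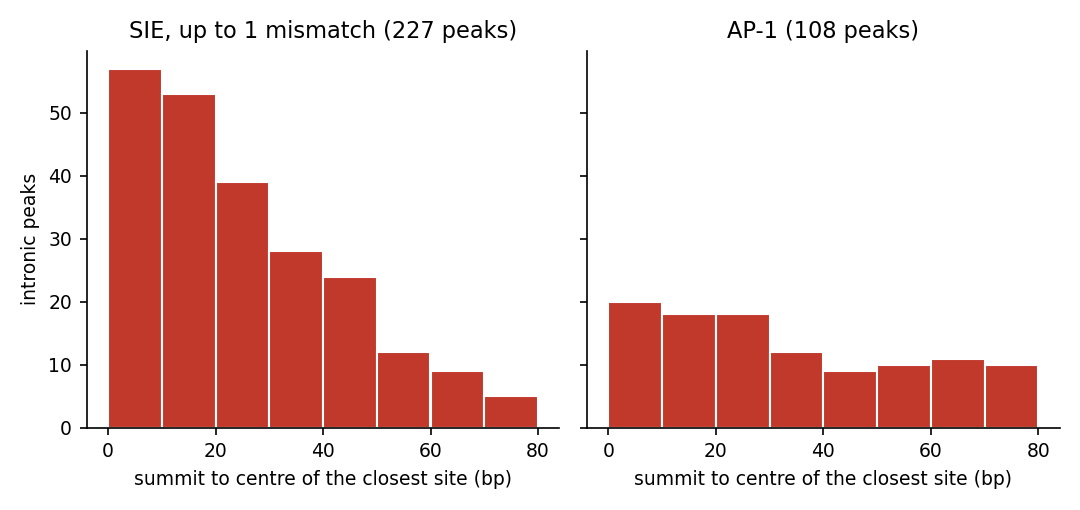
Number of intronic peaks (y axis) by distance in bp from the summit to the centre of the closest site (x axis, bins of 10 bp), for an SIE with up to 1 mismatch (227 peaks, median 20 bp) and for AP-1 (108 peaks, median 28 bp). The SIE bins fall steeply with distance and the AP-1 bins are flatter.

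Of the other motifs searched, the GC box GGGCGG, bound by SP1 and its relatives, lay at 19 intronic peaks (5.52%), beside 17.5% of all LIF peaks and 1.40% of tiled intronic windows. It was less frequent in intronic than in promoter peaks (31.4%, adjusted p = 1.43e-19, 2-sided Fisher's exact test) and in intergenic peaks (12.2%, adjusted p = 0.0185). The difference from intergenic peaks did not pass with protein-coding genes only, with promoters of 10 kb either side, or with motif windows of 50 or 150 bp (adjusted p from 0.0529 to 0.654). The median GC content of the windows was 46.6% for intronic, 57.1% for promoter and 47.8% for intergenic peaks, and its part in the GC box shares was not tested.

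The TEAD site GGAATG, whose first letters can overlap the end of an SIE, lay at 19.2% of intronic peaks, beside 15.6% of all LIF peaks and 8.65% of tiled intronic windows. The RUNX site TGTGGT lay at 15.1%, beside 12.7% and 11.5%, and the C/EBP site TTGCNNAA at 10.5%, beside 8.00% and 7.30%. The cAMP response element TGACGTCA was found at 0 of 344 intronic peaks (exact upper limit 1.07%), beside 0.460% of all LIF peaks. Under the main settings, none of these 4 motifs passed the test between intronic and promoter or intergenic peaks in windows of 80 bp. The smallest adjusted p was 0.0571, for TEAD and for RUNX against promoter peaks (Fisher's exact test). With promoters of 1 kb either side, the differences from promoter peaks passed for TEAD, RUNX and the cAMP response element (adjusted p = 0.00958, 0.00199 and 0.0440, Fisher's exact test). TEAD also passed against promoter peaks among the higher-scoring peaks (adjusted p = 0.00313, Fisher's exact test). In windows of 100 bp the TEAD and RUNX differences from promoter peaks passed (adjusted p = 0.0370 for TEAD and 0.00855 for RUNX, Fisher's exact test).

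**Figure D3:**
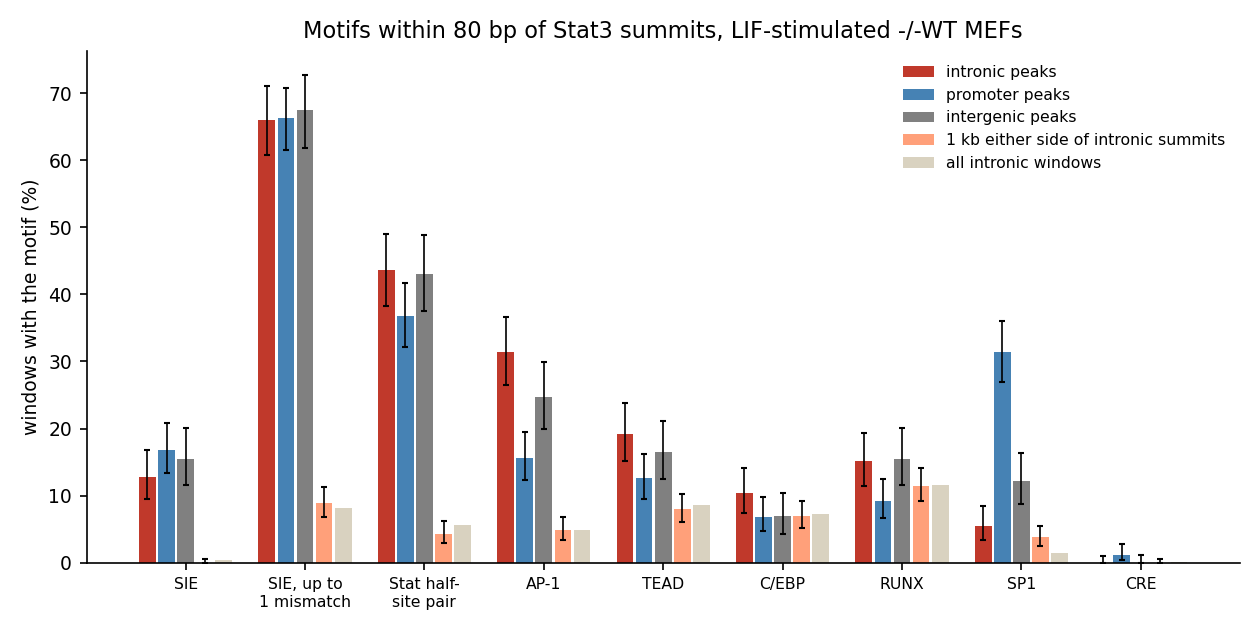
Percentage of windows (y axis) with each of 9 motifs (x axis) within 80 bp of intronic, promoter and intergenic LIF summits, in windows 1 kb either side of intronic summits, and in all tiled intronic windows. Error bars are exact 95% binomial intervals and the tiled windows carry none. With 1 mismatch allowed the SIE share is 66.0, 66.3 and 67.4% in the 3 classes of peaks. The GC box is highest in promoter peaks (31.4%). The AP-1 share is 31.4% in intronic and 24.7% in intergenic peaks, a difference that did not pass the test.

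Windows mostly repeat-masked (more than 50% of bases in lower case in the reference) made up 11 of 344 intronic peaks (3.20%), 2.14% of promoter and 4.28% of intergenic peaks, and neither difference passed (adjusted p = 0.535 for both, 2-sided Fisher's exact test). The same was true of 17.6% of the flanking windows and 24.4% of tiled intronic windows.

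Intronic summits lay a median of 13.3 kb from the nearest annotated start site, where a grid of 182410 eligible intronic positions spaced every 5 kb had a median of 16.0 kb. Within 10 kb of a start site were 145 summits (42.2%, 36.9 to 47.6%), beside 34.9% of grid positions, and over 50 kb away were 35 (10.2%, 7.19 to 13.9%), beside 18.2%. First introns held 136 summits (39.5%, 34.3 to 44.9%) and 29.0% of grid positions, and second introns held 62. The hosting introns had a median length of 37.7 kb, and 58 summits lay within 1 kb of an exon. No test was made of these positions.

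The host gene, taken as the longest protein-coding gene around a summit where there were several, was protein-coding for 294 peaks (85.5%), beside 85.2% of grid positions. For 212 peaks it also owned the closest annotated start site (61.6%, 56.3 to 66.8%), beside 58.2% of the grid. The remaining peaks thus lay closer to a start site of another gene than to one of their host, as for Sh3rf3, where the summit was 105 kb from the host's nearest start site and 5.12 kb from that of Gm27672. A further 148 LIF summits lay in gene bodies and outside exons but inside a promoter window. The 3 intronic summits closest to a window edge were 17, 23 and 55 bp outside it (Gm29346, Hivep2 and Nav1, scores 19.9, 17.6 and 16.2), and the 3 closest on the other side were 53, 93 and 117 bp within (Sfxn5, G730013B05Rik and 5830428M24Rik, scores 7.44, 20.4 and 13.2).

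The 344 peaks fell in 295 host genes, of which 257 had 1 intronic peak, 32 had 2 and 6 had 3 or more. The 38 genes with 2 or more together held 87 peaks and had a median length of 238 kb, against 105 kb for hosts of 1 peak. Neighbouring peaks of a gene lay a median of 34.2 kb apart, and 29 of 49 neighbouring pairs were in the same intron. The closest pair was in Ahnak, 0.712 kb apart (scores 16.2 and 10.0), and a pair in Zfp704 was 1.24 kb apart (18.1 and 7.34). In Spidr both peaks scored high (31.4 and 30.2) and lay 7.62 kb apart in intron 8.

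Of all intronic peaks, 66.0% had an SIE with up to 1 mismatch. In 3 of the 6 genes with 3 or more intronic peaks, every one of these peaks had such a site. In the rest it lay at 2 of 5 peaks in Slc14a2, 2 of 5 in Gm20388 and 1 of 3 in Tgfbr3. Lpp and Bicc1 are among the genes with a site at every peak. Their windows are shown with the SIEs marked in capitals together with AP-1 sites as before.
Lpp, chr16:24418203-24418263, score 10.4: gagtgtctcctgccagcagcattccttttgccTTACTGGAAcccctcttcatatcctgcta
Lpp, chr16:24494600-24494699, score 8.52: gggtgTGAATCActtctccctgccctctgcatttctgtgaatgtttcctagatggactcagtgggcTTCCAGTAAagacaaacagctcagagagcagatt
Lpp, chr16:24507019-24507123, score 8.08: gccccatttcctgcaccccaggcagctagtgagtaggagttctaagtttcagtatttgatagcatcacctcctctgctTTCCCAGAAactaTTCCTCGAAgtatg
Lpp, chr16:24515273-24515333, score 31.4: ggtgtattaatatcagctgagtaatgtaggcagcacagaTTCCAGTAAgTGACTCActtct
Bicc1, chr10:71119667-71119763, score 18.3: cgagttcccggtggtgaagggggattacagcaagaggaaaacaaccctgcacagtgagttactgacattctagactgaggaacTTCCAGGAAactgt
Bicc1, chr10:71032390-71032450, score 16.1: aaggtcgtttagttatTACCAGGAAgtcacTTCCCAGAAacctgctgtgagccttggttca
Bicc1, chr10:70998232-70998292, score 15.1: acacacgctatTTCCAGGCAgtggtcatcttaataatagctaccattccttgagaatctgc

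Lpp, which encodes a focal adhesion protein, had 4 intronic peaks over 97.1 kb, of which the highest (31.4) had a 1-mismatch SIE TTCCAGTAA followed after 1 base by an AP-1 site. The other peaks of Lpp scored 10.4, 8.52 and 8.08, and a promoter peak of the same gene scored 8.96. Bicc1, which encodes an RNA-binding protein, had 3 peaks of similar score (18.3, 16.1 and 15.1) in introns 1, 2 and 3, of which the first had a consensus SIE. Tgfbr3, the co-receptor betaglycan, had 3 peaks scoring 12.1, 8.76 and 5.68, of which 2 had an AP-1 site and 1 an SIE with up to 1 mismatch.

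Slc14a2 and Gm20388 had 5 intronic peaks each. Those of Slc14a2 spread over 398 kb and scored 61.0, 23.8, 17.2, 10.4 and 7.66, with an SIE of up to 1 mismatch at 2 of them. Gm20388 is a gene model of 4435 kb with all its peaks in 1 intron, scoring 5.81 to 12.2, and 3 of its peaks also lay inside Gse1. With the shortest gene around a summit taken as its host, an alternative added after the data were seen, 36 genes had 2 or more intronic peaks and Gse1 took the place of Gm20388 among the 6 genes with 3 or more.

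**Figure D4:**
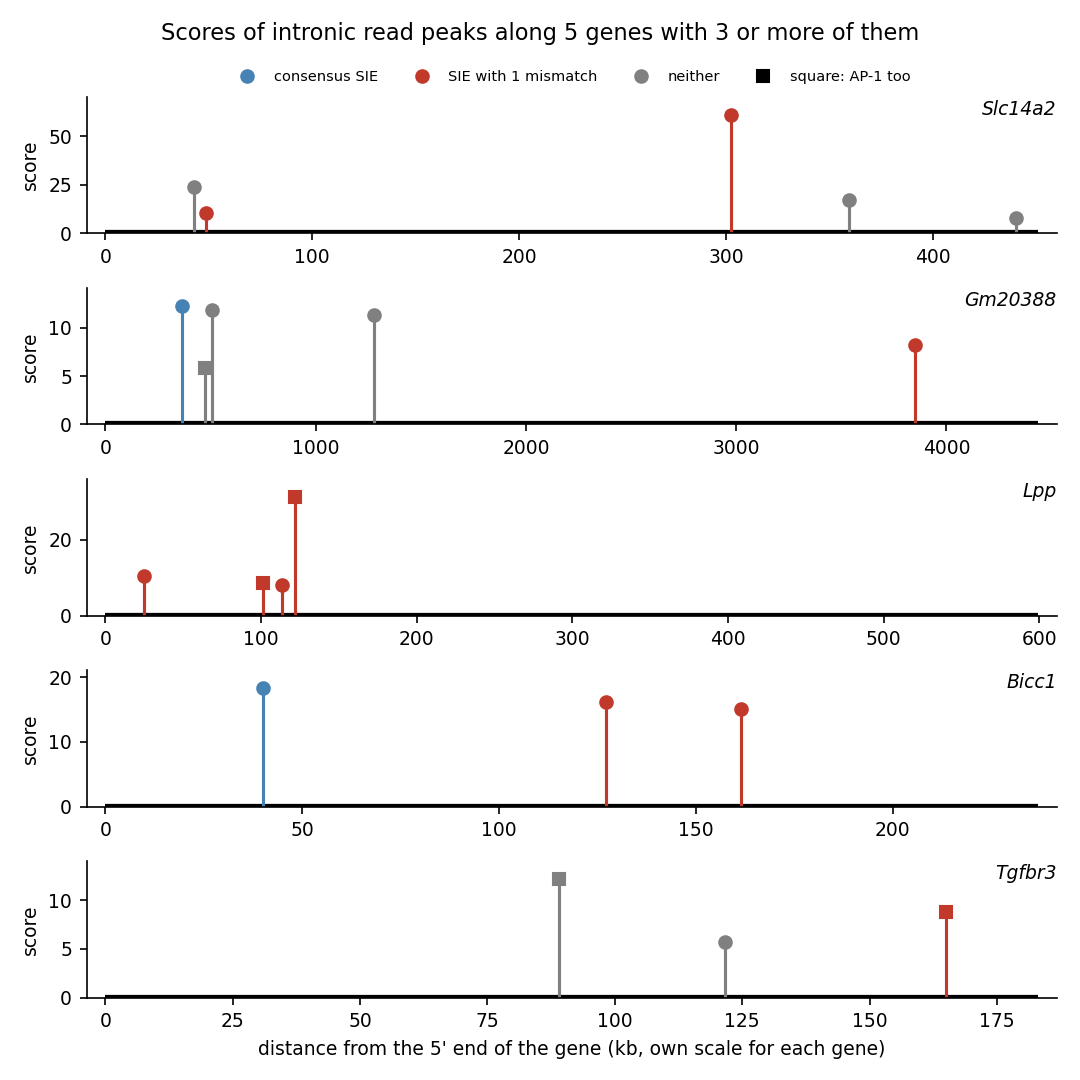
Score (y axis) of each intronic peak against its distance in kb from the 5′ end of its gene (x axis, black bar for the gene, own scales) in 5 of the 6 genes with 3 or more intronic peaks. Colour shows the SIE class and squares an AP-1 site. All peaks of Lpp and Bicc1 had an SIE with up to 1 mismatch, against 2 of 5 in Slc14a2, 2 of 5 in Gm20388 and 1 of 3 in Tgfbr3.

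A peak in the promoter window was also present for 19 of the 295 hosts (6.44%), where 0.906% of all 55536 annotated genes had one. The annotated genes were of every type, while 84.1% of the hosts were protein-coding, and the shares were not matched for gene type, length or number of start sites. The highest intronic peak outscored the highest promoter peak in 8 of these 19 genes, among them Lpp, Cpne8 (23.8 against 4.33) and Galnt9 (23.6 against 13.0), and scored lower in the other 11. In Sbno2, a transcriptional regulator known as a Stat3 target, the intron 2 peak scored 21.04 and the highest of 3 promoter peaks 107. In Arid5b, a DNA-binding regulator, 2 intronic peaks scored 8.63 and 6.57, while the highest of 2 promoter peaks scored 53.8.

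Among 212 genes in 10 lists of Stat signalling, its targets and fibroblast functions, 14 genes (6.60%) hosted an intronic peak, where 1.13% of all protein-coding genes did. The lists were drawn up with earlier results of these data known, so no test was made. Intronic peaks were in none of the 10 receptors and Jak kinases of the IL-6 family. They were also in none of the 16 inhibitors of Jak-Stat signalling and none of the 21 cytokines and chemokines. With hosts at 1.13% of all protein-coding genes, lists this short would be likely to hold none. These counts therefore cannot show a lack of intronic peaks. In each of these 3 lists 4 genes had a promoter peak, where 0.906% of all annotated genes of every type had one. Among the inhibitors, the 4 were Socs1, Socs2, Socs3 and Cish.

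Of 7 Stat genes, Stat5b had an intronic peak (intron 15, score 16.8), and of 19 AP-1 family genes Batf (intron 2, score 20.4) and Fosl2 (intron 1, score 16.5) had one. None of these 3 peaks had an SIE with up to 1 mismatch or an AP-1 site within 80 bp. Fosl2 also had 2 promoter peaks, of which the highest scored 21.9, above its intronic peak. Of 26 transcription regulators listed here as Stat3 targets, Sbno2 and the Hippo pathway factor Tead1 (intron 2, score 4.38) had an intronic peak. Both peaks had a 1-mismatch SIE. Ell was the only host among 20 elongation genes, and the growth factor receptor gene Fgfr1 (intron 2, score 7.66) the only host among 24 genes of survival and growth.

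The extracellular matrix list, the longest of the 10, had the most hosts, 5 of 35 (14.3%). The 7 Stat genes had the same share, and all protein-coding genes 1.13%. No list was matched to other genes for gene length. Beside Ltbp1 and Lama4, the matrix hosts were Fbn1, the collagen gene Col12a1 (intron 47, score 8.21) and Ltbp2 (intron 3, score 7.66). Fbn1, the main fibrillin of microfibrils, had peaks in introns 64 and 63 scoring 15.8 and 10.9. In the list of adhesion and actin genes, 2 of 34 were hosts, Lpp and the unconventional myosin gene Myo1e, whose peaks scored 24.9 and 5.97.

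In the other 4 lists, 1 of the 344 intronic LIF peaks (0.291%, 0.00736 to 1.61%) was found within 200 bp, beside 0.460% of all LIF peaks. It lay in intron 3 of Camk2b, a subunit gene of the calmodulin-dependent kinase II, with a LIF score of 6.95. A summit lay 1 bp away in the -/-WT peroxide list (score 5.48), 6 bp away in the -/-C3S basal list (7.57) and 3 bp away in the -/-C3S peroxide list (17.3). All bases of the window at this peak were repeat-masked, and it held neither a consensus SIE nor an AP-1 site. The 61 bases centred on the summit occur 11 times in identical form in the mm10 chromosomes, on 8 of them, and from which copy the reads came was not tested. The lines also carried the retroviral vectors named above, and whether reads from vector sequence were placed at this peak was not tested. No intronic LIF peak was found in the -/-WT basal list, whose closest summit was 152 kb from one, in Stat5b.

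By the study's text more reads were obtained from the LIF libraries than from the others, and the depth of the lists is not known from the files, so absence from a list and lower depth cannot be told apart. The other lists had intronic shares of 22.2% (51 of 230, -/-WT basal), 24.0% (108 of 450, -/-WT peroxide), 22.8% (33 of 145, -/-C3S basal) and 24.2% (54 of 223, -/-C3S peroxide).

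Genes named as oxidant-responsive and Stat3-dependent by the RNA-seq of the same study, which was not analysed here, were looked up among the hosts. Of the 197 that matched an annotated gene, 6 hosted an intronic LIF peak, beside 1.13% of all protein-coding genes. These were Dysf (score 10.4), Col12a1 (8.21), Slc8a1 (7.19 and 6.80), Ebf1 (4.68), Dkk3 (3.42) and Bach2 (1.99). Among them, Dysf, of the membrane repair protein dysferlin, was the only one above the list's median score, at rank 500. Whether hosts were more frequent among these genes than among all protein-coding genes was not tested. The paper reported that its genes with LIF peaks did not overlap significantly with the oxidant-responsive genes.

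Intronic peaks were spread unevenly over chromosomes. For each Mb of eligible intronic sequence there were 0.377 peaks in all, 0.808 on chromosome 10 (40 peaks), 0.700 on chromosome 18 (22 peaks) and 0.650 on chromosome 15 (24 peaks). Densities were lower on chromosome 6 (0.150, 8 peaks), on chromosome 1 (0.196, 13 peaks) and on chromosome X (0.0238, 1 peak). The whole LIF list was uneven as well, with 128 of its peaks on chromosome 10 and 7 on chromosome X.

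**Figure D5:**
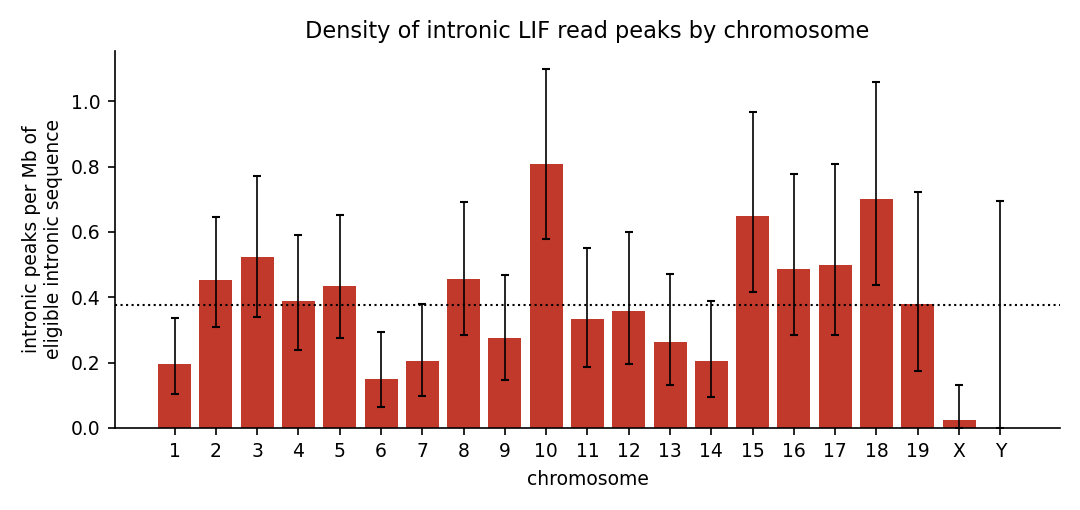
Intronic LIF peaks per Mb of eligible intronic sequence (y axis) on each chromosome (x axis), with exact 95% Poisson intervals for counting error and a dotted line at the value of 0.377 for all chromosomes. Chromosome 10 is highest at 0.808 and chromosome X has 1 peak.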

How the data were processed

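Stat3 ChIP-seq summit lists from 5 conditions were used. The authors prepared 2 ChIP replicates per condition, mapped reads to mm10, called peaks on both together and kept those with depth above IgG; the submitters' processing notes name HISAT2, Picard and MACS2. The deposited score in column 5, whose unit is not stated in the sources used here, served only as a rank, and the third column, another kind of value, as the 1-based summit position. The files hold no depth, and input and IgG data were not used here.

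Summits were classed by GENCODE M21. Motifs were counted within 80 bp in Python 3.11.15 with pysam 0.24.0, and shares were set against each other by Fisher's exact test (2-sided, SciPy 1.17.1) with Benjamini-Hochberg adjustment, at a threshold of 0.05. Alternatives changed the promoter window, the gene set, the exons, the motif window and the distances. Scripts were tested on simulated data. Windows for the background were all eligible intronic windows of 161 bases.

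The peaks and gene lists were chosen with earlier results of these data known. Named genes were the hosts of the 15 highest-scoring intronic peaks, of 3 or more peaks, of peaks found in another list, in the gene lists, or among the oxidant-responsive genes; other names were chosen after their values were seen. The values of 1 gene with 3 peaks are not reported here.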

Additional observations from a re-analysis of the deposited data

How the results depend on the processing

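Of 192 tested differences recomputed under other settings, 162 kept their direction and their side of the threshold. Of 18 counts and shares without a test, 13 stayed within 1.5 times the main count or, for shares, within the 95% interval of the main share. Keeping only chromosomes 1 to 19, X and Y removed no summit and is left out of these counts. No paired analysis was possible because both replicates of each condition were pooled before peak calling, and no replicate could be left out for the same reason.

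The intronic share was 28.6% with protein-coding genes only, 36.0% with promoters of 1 kb and 18.3% with promoters of 10 kb either side of a start site, where 199 summits were left. Among peaks at or above the list's median score 162 summits were intronic. With 10 kb promoters the AP-1 difference fell to 8.08 points against promoter peaks and to 0.287 points against intergenic peaks.

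Differences in the SIE with up to 1 mismatch, none of which passed, turned to 0.403 points against promoter peaks with 1 kb promoters, 0.302 with exons of protein-coding transcripts and 1.10 in 50 bp windows, and to 0.122 against intergenic peaks with 10 kb promoters. Against intergenic peaks, TTCNNNGAA turned to -1.56 (protein-coding genes), -4.76 (higher-scoring peaks), -2.19 (50 bp) and -0.122 points (100 bp), RUNX to 2.41 (protein-coding genes) and 0.107 (100 bp) and TEAD to -0.0841 (100 bp), none past the threshold. The repeat-rich difference from promoter peaks passed at 2.68 points with 1 kb promoters and at 11.2 when any masked base counted, and it turned to -0.152 with 10 kb promoters. From intergenic peaks it turned to 0.275 with 10 kb promoters and 2.87 for any masked base. Allowing 1 mismatch took the SIE difference between higher- and lower-scoring intronic peaks to 11.0 points. It did not pass after adjustment over 3 motifs (exact test, p = 0.0403 unadjusted and 0.121 adjusted). The causes were not tested.

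A further 8 values for motifs other than SIE and AP-1 passed only under another setting, and 4, all for the GC box, no longer passed. The score has no stated unit, and shallow lists limit what can be found in them.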
